A study of Mus musculus with 21 samples.

Results

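The genes described here are 46 genes of DNA replication and S phase, followed in the rostral cerebral cortex of mouse embryos that carry mutations of the transcription factor gene Pax6. They were taken from a list of names in 6 roles: licensing of origins, activation of the helicase, the fork and its polymerases, nucleotide supply, cyclin E and E2F, and histone supply with fork protection. Each gene was read by the probe set annotated to it with the highest mean over the 21 arrays. A probe set was matched to 45 of the 46 genes, among 13850 genes tested in all, and none was matched here to Chaf1a, the large subunit of chromatin assembly factor 1.

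Before a cell copies its DNA, the origin recognition complex, Cdc6 and Cdt1 load the ring of Mcm2 to Mcm7 on origins, and this licence is used once per cycle. Kinases with Cdc45 and the GINS complex then turn the ring into a moving helicase, behind which clamp, clamp loader, primase and polymerases copy both strands. Many of these genes are targets of E2F transcription factors and peak at the entry into S phase. In the embryonic cortex they belong to dividing radial glia and intermediate progenitors, while newborn neurons have left the cycle.

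The study compared 3 Pax6 mutant lines with wild type littermates at embryonic day 14, with 1 Affymetrix array for each of 21 biological replicates. The Sey (Small-eye) line, on strain C57BL/6J x DBA/2J (B6D2F1), had 4 mutants and 3 controls. The Leca4 line had 3 mutants and 4 controls, and the Leca2 line had 4 mutants and 3 controls, both on strain 129 S6. All embryos were untreated, and the labels give the sex of none. As background, Sey is a loss-of-function allele of Pax6, while Leca4 and Leca2 change the PAI and RED subdomains of its paired DNA-binding domain. The labels do not give the zygosity of the mutants, and whether an array held 1 embryo or several is not given in the sources used here. Values are deposited log2 RMA expression values, and a change is the mean of the mutants minus the mean of the controls of the same line.

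The cortical genes Emx2, Tbr1 and Neurod6 stood at no less than 9.30, 9.91 and 11.79 on any array. The level needed to keep a probe set was 5.37 to 5.60. Some ventral genes, such as Dlx1, also lay above it on every array, so these values do not tell cortex from neighbouring tissue. Pax6 itself was higher in every mutant line, by 0.56 ± 0.09 (SE) in Sey, 0.49 ± 0.09 in Leca4 and 0.93 ± 0.09 in Leca2, with limma adjusted p of 0.000184, 0.00276 and 1.1e-05. Where its probe set lies relative to the mutations was not examined, so its level does not check the labels. The sexes, read from Xist and Y-linked genes, were uneven. Males were 1 of 4 Sey mutants and all 3 Sey controls, 2 of 3 Leca4 mutants and 3 of 4 Leca4 controls, and 2 of 4 Leca2 mutants and none of the 3 Leca2 controls. The columns of the 3 lines appear to have been normalized separately, so levels are set side by side across lines only as a description.

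In Sey mutants nearly the whole set rose. Of 45 genes tested, 44 were higher at a limma adjusted p under 0.05, none was lower, and Orc1 alone did not pass. Over all genes 10.7% were called higher and 9.41% lower in Sey. The median change of the set was 0.635 on the log2 scale, against -0.0002 over all genes, and 34 of its genes exceeded 0.5, as did 4.25% of all genes. In 43 of the 45 genes every Sey mutant lay above every Sey control, against 16.5% of all genes, and the exceptions were Orc1 and Ccne2. In Leca4 mutants no gene of the set was called, with 3.39% of all genes called higher and 2.24% lower. In Leca2 mutants none was called either, with 0.173% of all genes called higher and 0.303% lower. In bulk tissue a larger share of cycling cells and more RNA per cell cannot be told apart.

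The mean over the 45 genes put the Sey controls below every other array. It was 10.15 to 10.28 in the 4 Sey mutants and 9.54 to 9.60 in the 3 Sey controls, so these groups did not overlap. It was 10.001 to 10.293 in the Leca2 mutants and 9.961 to 10.214 in their controls, and 9.999 to 10.211 in the Leca4 mutants and 9.997 to 10.193 in theirs, with overlap in both. The wild type groups thus stood at different levels: the Sey controls averaged 9.58 ± 0.04 (SD, n = 3), the Leca2 controls 10.08 ± 0.13 (n = 3) and the Leca4 controls 10.07 ± 0.09 (n = 4). After quantile normalization over all arrays the same means were 9.78, 10.03 and 9.92, and the Sey mutants stood at 10.39. Strain, line and separate normalization cannot be told apart in these level differences between controls, whereas the changes compare arrays within a line.

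**Figure D1:**
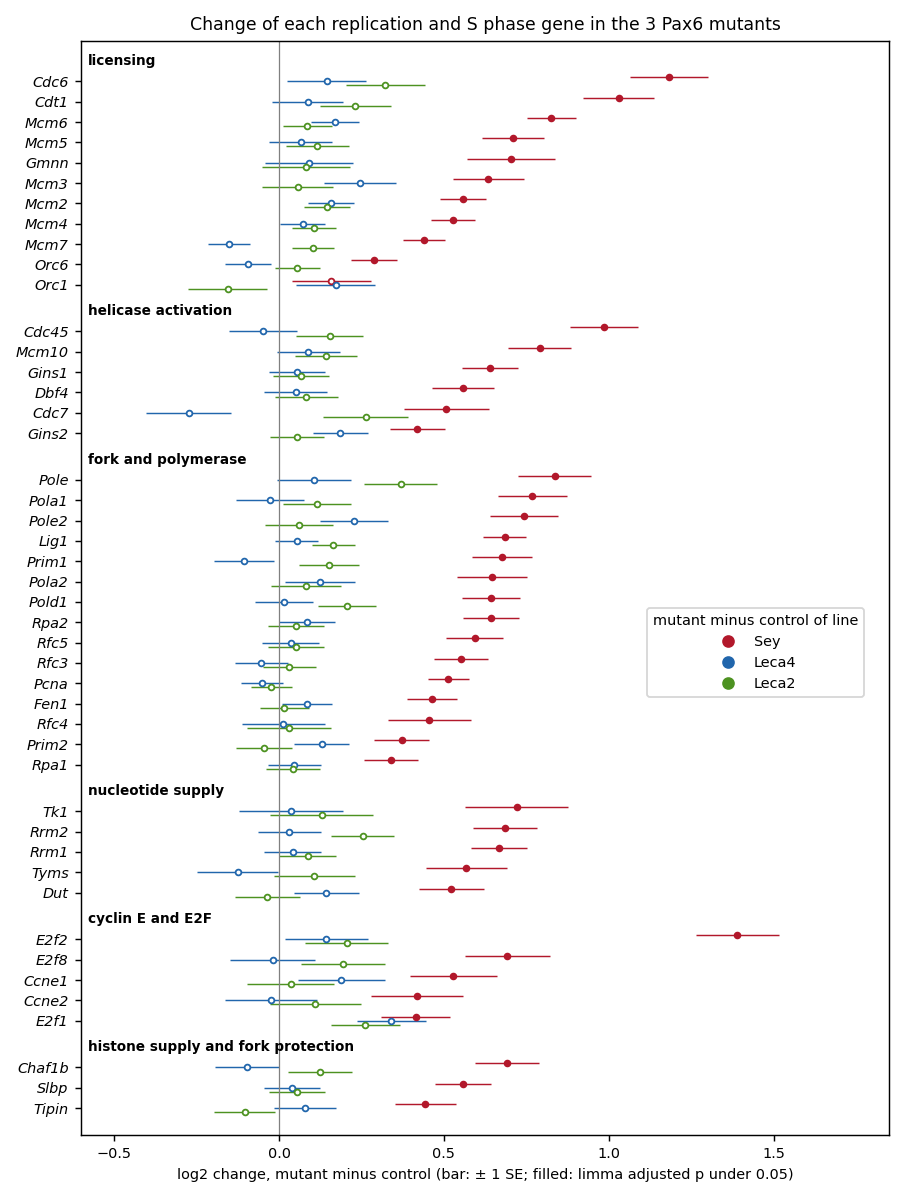
Change of each of the 45 genes in the 3 lines, grouped by role; the horizontal axis is the log2 change (mutant minus control of the line), points are the fitted changes, bars are ± 1 SE, and filled points have a limma adjusted p under 0.05. All 45 Sey points lie to the right of 0 and 44 are filled, while every Leca4 and Leca2 point is open.

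Promoter sequences were examined because many genes of the set are known E2F targets. RefSeq windows of build GRCm38.p6, from 250 bases before to 50 after an annotated start, were matched for 38 of the 46 genes and gave 44 windows. Of these, 22 are placed at the outermost start of the gene and 22 at another start inside it, 9 of them within 100 bases of the outermost and the farthest 8508 bases from it. They were searched on both strands for the E2F forms TTTCCCGC, TTTGGCGC, TTTCGCGC and TTTGCCGC. A match was present in 13 of the 44 windows (29.5%), in 13 genes, against 744 of all 32851 windows (2.26%). Of the 19 matches, which may overlap when both strands match, 10 lay before the window's start, in 7 genes (Mcm5, Mcm6, Mcm7, Cdc6, Orc1, Rfc3 and Pola1). In Mcm7, Cdc6, Orc1 and Pola1 the match lies inside the gene, since the window's start does. The stretches of the other 3, with 6 matches, lie before the outermost start and are printed below from 5′ to 3′ on the gene's strand, with the matched bases in capitals. They are shown because they hold the searched letters upstream of any annotated start of the gene.
Mcm5: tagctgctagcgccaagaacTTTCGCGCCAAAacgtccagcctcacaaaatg
Mcm6: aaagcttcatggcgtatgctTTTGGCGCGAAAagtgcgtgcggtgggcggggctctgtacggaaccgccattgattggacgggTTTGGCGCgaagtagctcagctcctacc
Rfc3: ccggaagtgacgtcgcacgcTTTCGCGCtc

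These stretches are chr8:75109336-75109387 (plus strand) for Mcm5, chr1:128359725-128359835 (minus) for Mcm6 and chr5:151651209-151651238 (minus) for Rfc3. Mcm5 and Mcm6 each hold matches on both strands that share bases, and Mcm6 holds a further match nearer the start. The remaining matches, at or after the window's start, were in Mcm3, Mcm7, Cdt1, Rfc3, Pole2, Pold1, Lig1 and E2f2.

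The 13 genes with a match had a median Sey change of 0.709 (range 0.158 to 1.389). The 24 genes with a window and array value but no match had a median of 0.563 (range 0.289 to 0.985). The ranges overlap, and the gene with the largest change, E2f2, and the gene that was not called, Orc1, both hold a match. The E2F forms were in 14 of 42 windows of other replication genes (33.3%) and in 1 of 19 windows of mitotic genes (5.26%). Elements known from mitotic promoters were distributed the other way. The CHR hexamer TTTGAA was in 18.2% of the windows of the set, 73.7% of the mitotic windows and 17.9% of all windows, and the NF-Y box CCAAT in 52.3%, 89.5% and 37.4%. A match is a description of letters in a window, not of binding.

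**Figure D2:**
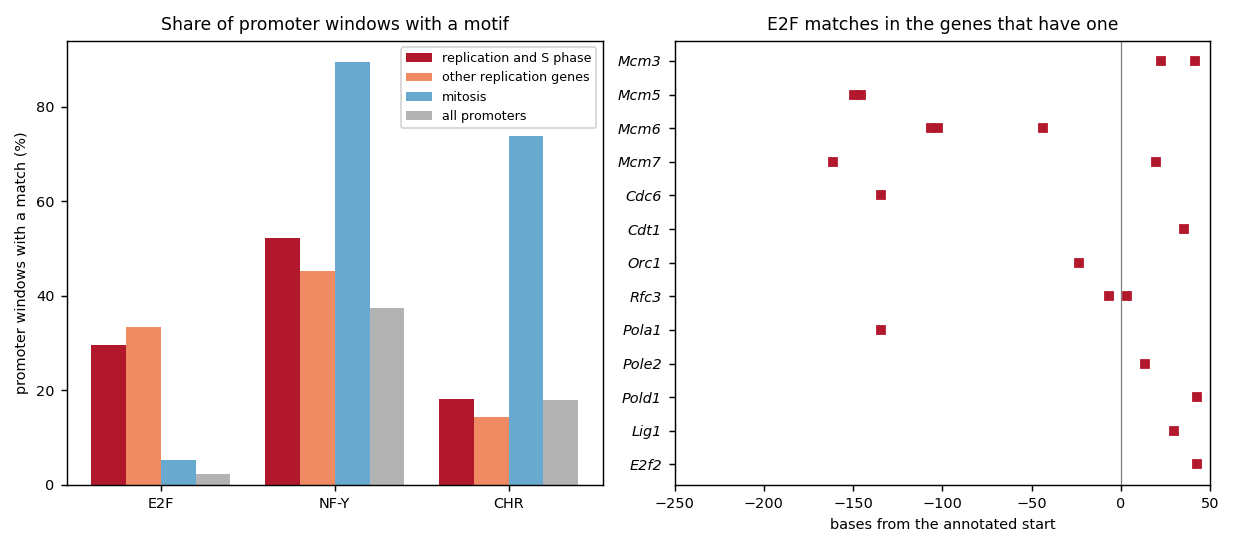
Share of promoter windows that hold each motif (percent, bars from 0) for the replication and S phase genes, other replication genes, mitotic genes and all windows of the RefSeq table. The E2F forms stand at 29.5% and 33.3% in both groups of replication genes, 5.26% in mitotic genes and 2.26% of all windows, while the CHR hexamer is most frequent in mitotic genes, at 73.7%.

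Among the licensing genes 10 of 11 rose in Sey, with changes from 0.16 to 1.18 and a median of 0.635. Cdc6, the loader of the Mcm ring and the gene of this role that changed most, read 9.34, 9.21, 9.43 and 9.31 in the Sey mutants and 8.13, 8.10 and 8.20 in the controls. The lowest mutant stood about a full log2 unit above the highest control. The change was 1.18 ± 0.12 (2.27-fold, limma adjusted p = 7.37e-07). In Leca4 it read 8.97, 8.84 and 9.19 in mutants and 8.72, 9.11, 8.75 and 8.83 in controls. In Leca2 it read 9.37, 9.04, 8.93 and 9.36 in mutants and 9.07, 8.69 and 8.80 in controls. Both of these pairs overlapped, with changes of 0.14 ± 0.12 (adjusted p = 0.595) and 0.32 ± 0.12 (adjusted p = 0.47).

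Mcm2, a subunit of the Mcm ring, read 10.73, 10.81, 10.95 and 10.87 in the Sey mutants and 10.21, 10.32 and 10.31 in the controls, with no overlap and a change of 0.56 ± 0.07 (adjusted p = 1.01e-05). It read 10.82, 10.71 and 10.83 in Leca4 mutants and 10.53, 10.73, 10.65 and 10.61 in their controls. It read 10.87, 10.66, 10.68 and 10.88 in Leca2 mutants and 10.72, 10.57 and 10.58 in theirs. The Leca groups overlapped in both lines, at 0.16 ± 0.07 (adjusted p = 0.232) and 0.14 ± 0.07 (adjusted p = 0.741).

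All 6 subunits of the ring rose in Sey. Mcm6 changed most, by 0.83 ± 0.07 (adjusted p = 1.7e-07), then Mcm5 by 0.71, Mcm3 by 0.64, Mcm2 by 0.56, Mcm4 by 0.53 and Mcm7 by 0.44. Cdt1, the partner of Cdc6 in loading, rose by 1.03 ± 0.11 (2.04-fold, adjusted p = 1.18e-06). Gmnn, which encodes geminin, the inhibitor of Cdt1, rose in the same samples by 0.70 ± 0.13 (adjusted p = 0.000763). The origin recognition complex moved least: Orc6 rose by 0.29 ± 0.07 (adjusted p = 0.00524), and Orc1 stood at 0.16 ± 0.12 (adjusted p = 0.406). A second probe set of Orc1 gave 0.47 in Sey (adjusted p = 0.00171 over all kept probe sets), and with the mean of its probe sets Orc1 was called, at 0.31 (adjusted p = 0.00471). Orc1 therefore depends on the probe set read.

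Helicase activation genes rose in Sey in 6 of 6 cases, with changes from 0.42 to 0.99. Cdc45, a component of the active helicase, read 8.58, 8.43, 8.69 and 8.49 in the Sey mutants and 7.503, 7.540 and 7.642 in the controls, a change of 0.99 ± 0.10 (1.98-fold, adjusted p = 1.2e-06). In Leca4 it read 8.24, 8.12 and 8.32 in mutants and 8.21, 8.37, 8.22 and 8.30 in controls. In Leca2 it read 8.62, 8.36, 8.05 and 8.39 in mutants and 8.40, 8.07 and 8.14 in controls. The Sey groups stood far apart and both Leca pairs were mixed, with changes of -0.05 ± 0.10 (adjusted p = 0.866) and 0.15 ± 0.10 (adjusted p = 0.914). Another probe set of Cdc45 gave only 0.24 in Sey and was not called (adjusted p = 0.0626 over all kept probe sets).

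Mcm10, which helps to start the helicase, rose in Sey by 0.79 ± 0.09 (adjusted p = 6.28e-06). Gins1 and Gins2, subunits of GINS, rose by 0.64 ± 0.08 (adjusted p = 2.05e-05) and 0.42 ± 0.08 (adjusted p = 0.00105). The kinase gene Cdc7 and its activator Dbf4 rose by 0.51 ± 0.13 and 0.56 ± 0.10 (adjusted p = 0.00789 and 0.000265). Cdc7 read differently in the other lines, at -0.27 ± 0.13 in Leca4 (adjusted p = 0.266) and 0.26 ± 0.13 in Leca2 (adjusted p = 0.764). Its Sey call was lost without Sey control replicate 3 (0.40, adjusted p = 0.0606) and with a term for sex (0.42, adjusted p = 0.0647). Another probe set of Gins1, with a mean of only 5.55, was called in Leca4 at 0.47 (adjusted p = 0.0325), while its chosen probe set stood there at 0.05.

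At the fork, all 15 genes of clamp, clamp loader, primase, polymerases and single-strand binding rose in Sey, with a median of 0.642 and a range of 0.34 to 0.84. Pole, the catalytic subunit of the leading-strand polymerase epsilon, read 9.25, 9.26, 9.16 and 9.15 in the Sey mutants and 8.22, 8.46 and 8.42 in the controls, a change of 0.84 ± 0.11 (adjusted p = 2.06e-05). In Leca4 it read 9.25, 9.24 and 9.24 in mutants and 9.22, 9.14, 9.02 and 9.17 in controls. In Leca2 it read 9.41, 9.51, 9.57 and 9.98 in mutants and 9.16, 9.07 and 9.52 in controls. All Leca4 mutants lay above all their controls, but the step was small, at 0.11 ± 0.11 (adjusted p = 0.694). The Leca2 groups overlapped at 0.37 ± 0.11, and its adjusted p of 0.246 was the smallest of the set in that line.

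Pcna encodes the sliding clamp that holds polymerases on the DNA. It read 13.51, 13.50, 13.49 and 13.40 in the Sey mutants and 12.913, 12.997 and 12.980 in the controls, a change of 0.51 ± 0.06 (adjusted p = 7.93e-06). It read 13.43, 13.45 and 13.59 in Leca4 mutants and 13.53, 13.60, 13.50 and 13.54 in their controls. It read 13.57, 13.59, 13.31 and 13.56 in Leca2 mutants and 13.59, 13.50 and 13.51 in theirs. The Leca groups overlapped, at -0.05 ± 0.06 (adjusted p = 0.738) and -0.02 ± 0.06 (adjusted p = 1).

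The polymerase alpha and primase genes rose together in Sey: Pola1 by 0.77 ± 0.10 (adjusted p = 2.4e-05), Pola2 by 0.64, Prim1 by 0.68 and Prim2 by 0.37. Pole2, the accessory subunit of polymerase epsilon, rose by 0.74 ± 0.10 (adjusted p = 3.3e-05), and Pold1, the catalytic subunit of the lagging-strand polymerase delta, by 0.64. Lig1 and Fen1, which process and seal Okazaki fragments, rose by 0.68 and 0.46. The clamp loader genes Rfc3, Rfc4 and Rfc5 rose by 0.55, 0.46 and 0.59, and the single-strand binding genes Rpa1 and Rpa2 by 0.34 and 0.64. The Prim2 probe sets disagreed. Another probe set stood at -0.14 (adjusted p = 0.357), and the mean of the Prim2 probe sets gave 0.16 (adjusted p = 0.523) against an adjusted p of 0.00343 for the chosen probe set. Rfc4 (adjusted p = 0.0141) lost its call without Sey mutant replicate 3 (0.36, adjusted p = 0.0509) and without Sey control replicate 2 (0.44, adjusted p = 0.051). The Rfc4 call was also lost with a term for sex (0.43, adjusted p = 0.0648) and with the replicate number as a block (0.44, adjusted p = 0.0507).

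The 5 nucleotide supply genes rose in Sey by 0.52 to 0.72. Tk1, the thymidine kinase of S phase, read 10.02, 9.96, 10.21 and 10.12 in the Sey mutants and 9.28, 9.33 and 9.46 in the controls, a change of 0.72 ± 0.16 (adjusted p = 0.00237). In Leca4 it read 10.20, 9.70 and 10.27 in mutants and 9.88, 10.29, 9.81 and 10.11 in controls. In Leca2 it read 10.31, 10.12, 9.68 and 10.17 in mutants and 10.18, 9.68 and 9.96 in controls. Both Leca pairs overlapped widely, with changes of 0.04 ± 0.16 (adjusted p = 0.941) and 0.13 ± 0.16 (adjusted p = 1).

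Rrm1 and Rrm2, the subunits of ribonucleotide reductase, rose in Sey by 0.67 ± 0.09 (adjusted p = 1.46e-05) and 0.69 ± 0.10 (adjusted p = 3.55e-05). Tyms, the thymidylate synthase, rose by 0.57 and Dut, the dUTPase, by 0.52. The Tyms probe set was dim, with its lowest array at 5.45, within the range of the filter level. No nucleotide supply gene reached an unadjusted p under 0.05 in Leca4. In Leca2 only Rrm2 did, at 0.25 ± 0.10 (adjusted p = 0.497).

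The 5 regulators of S phase entry rose in Sey, and this role held both the largest change of the set and its weakest call. E2f2, an activator of the family, read 8.74, 8.34, 8.77 and 8.66 in the Sey mutants and 7.003, 7.292 and 7.420 in the controls, a change of 1.39 ± 0.13 (2.62-fold, adjusted p = 2.03e-07) and the largest of the set. In Leca4 it read 8.44, 8.37 and 8.50 in mutants and 8.13, 8.40, 8.25 and 8.39 in controls. In Leca2 it read 8.57, 8.46, 8.30 and 8.55 in mutants and 8.57, 8.02 and 8.20 in controls. The Leca groups overlapped, at 0.14 ± 0.13 (adjusted p = 0.626) and 0.20 ± 0.13 (adjusted p = 0.883).

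E2f1, the other activator listed, had values of like size in all 3 lines. It read 9.13, 8.83, 8.99 and 9.01 in the Sey mutants and 8.53, 8.56 and 8.64 in the controls, a change of 0.41 ± 0.10 (adjusted p = 0.00762). In Leca4 it read 9.30, 9.24 and 9.68 in mutants and 9.08, 9.19, 8.94 and 9.07 in controls. In Leca2 it read 9.43, 9.33, 9.21 and 9.44 in mutants and 9.26, 8.87 and 9.14 in controls. All Leca4 mutants were above all controls, at 0.34 ± 0.10 (adjusted p = 0.0673), and the Leca2 groups overlapped slightly, at 0.26 ± 0.10 (adjusted p = 0.568). In Leca4, E2f1 passed without Leca4 mutant replicate 2 (0.42, adjusted p = 0.036) and with the mean of its probe sets (0.29, adjusted p = 0.0454). Its Sey call was lost with a term for sex (0.30, adjusted p = 0.0803) and with the replicate number as a block (0.41, adjusted p = 0.0629).

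Ccne1, a cyclin E that drives S phase entry, read 8.83, 8.74, 8.75 and 8.84 in the Sey mutants and 8.17, 8.27 and 8.34 in the controls, a change of 0.53 ± 0.13 (adjusted p = 0.00705). It read 8.850, 8.632 and 9.003 in Leca4 mutants and 8.47, 8.91, 8.35 and 8.83 in controls. It read 9.07, 9.01, 8.66 and 9.19 in Leca2 mutants and 9.13, 8.84 and 8.87 in controls. The Sey groups did not overlap and the Leca groups did, at 0.19 ± 0.13 (adjusted p = 0.507) and 0.04 ± 0.13 (adjusted p = 1). The Ccne1 call in Sey was lost with a term for sex (0.44, adjusted p = 0.0585). E2f8, an atypical E2F that represses, rose in Sey by 0.69 ± 0.13 (adjusted p = 0.000599).

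Ccne2, the other cyclin E, was the weakest call in Sey, at 0.42 ± 0.14 (adjusted p = 0.0393). It was lost without Sey mutant replicate 2, 3 or 4 (0.43, 0.34 and 0.36, adjusted p = 0.061, 0.12 and 0.108). It was also lost without Sey control replicate 1 or 3 (0.36 and 0.41, adjusted p = 0.155 and 0.102), and with a term for sex (0.35, adjusted p = 0.175). A fit of only the groups compared (0.42, adjusted p = 0.0913) and the replicate number as a block (0.36, adjusted p = 0.134) removed it too.

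The 3 measured genes of histone supply and fork protection rose in Sey. Chaf1b, a subunit of chromatin assembly factor 1, which deposits histones on new DNA, read 8.89, 8.78, 8.93 and 8.90 in the Sey mutants and 8.003, 8.244 and 8.306 in the controls, a change of 0.69 ± 0.10 (adjusted p = 3.65e-05). It read 9.15, 8.91 and 9.11 in Leca4 mutants and 9.092, 9.198, 9.067 and 9.249 in controls. It read 9.29, 9.11, 8.87 and 9.10 in Leca2 mutants and 9.15, 8.91 and 8.84 in controls. The Leca groups overlapped, at -0.10 ± 0.10 (adjusted p = 0.671) and 0.13 ± 0.10 (adjusted p = 0.963). Another probe set of Chaf1b stood at -0.04 in Sey (adjusted p = 0.769). Slbp, which binds the end of histone messages, rose by 0.56 ± 0.08 (adjusted p = 8.48e-05). Tipin, a partner of Timeless at stalled forks, rose by 0.44 ± 0.09 (adjusted p = 0.0018).

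**Figure D3:**
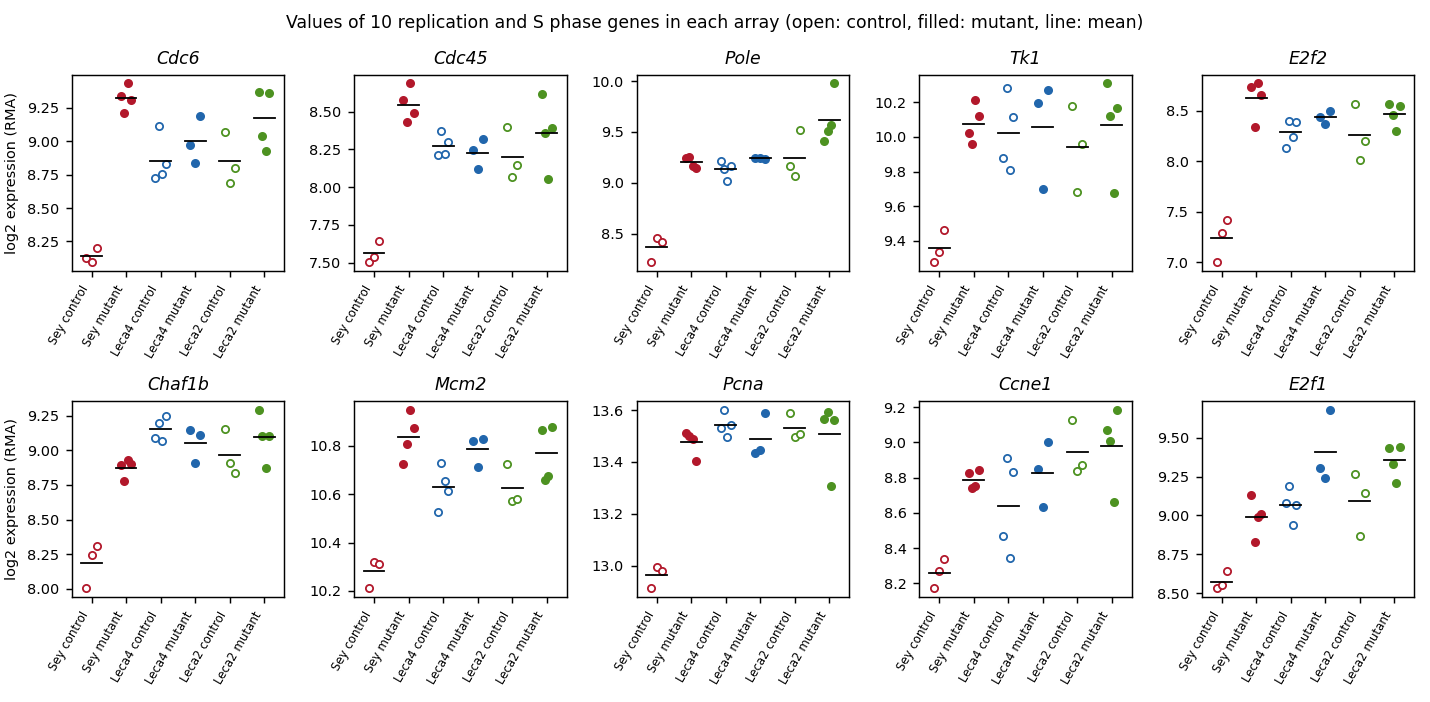
Deposited log2 value of 10 genes on each of the 21 arrays, by line and genotype; points are arrays and short lines are group means. In all 10 panels the Sey mutants lie above all Sey controls, while Leca2 groups overlap in every panel and Leca4 groups in every panel but Pole and E2f1.

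In most of the 30 genes with another kept probe set, the gain in Sey did not rest on the probe set chosen. The other 15 genes had only 1 kept probe set, so this could not be examined in them. The 39 other kept probe sets, which belong to 30 of the genes, had a median Sey change of 0.556. Of these, 30 were called higher, none was called lower and 9 were not called, 2 of them with negative values (Prim2 and Chaf1b, above). Those not called also include probe sets of Cdc45 (0.24), Mcm4 (0.30), Cdc7 (0.14) and Dut (0.07), genes whose chosen probe sets were called. Over all genes, read by their chosen probe sets, 10.7% were called higher in Sey. In Leca4 only the dim Gins1 probe set was called, and in Leca2 none was.

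In the Leca lines most values were positive and small. In Leca4 33 genes of the set were positive and 12 negative, with 52.1% of all genes positive. The median was 0.0544, against 0.006 over all genes. It was 0.0237 (without Leca4 mutant replicate 3) to 0.1235 (without Leca4 mutant replicate 2) when 1 array was left out. An unadjusted p under 0.05 was reached by 8 genes, 6 upward and 2 downward, and by 18.3% of all genes. In 4 genes, Mcm4, Gins2, Pole and E2f1, every Leca4 mutant lay above every control, against 8.25% of all genes. In Leca2 40 genes were positive, against 52.6% of all genes, with a median of 0.0866 against 0.0052, and of 0.038 (without Leca2 control replicate 2) to 0.1543 (without Leca2 mutant replicate 3) when 1 array was left out. An unadjusted p under 0.05 was reached by 7 genes, all upward, and by 6.84% of all genes. In none did the Leca2 groups separate, against 3.26% of all genes.

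The arrays limit how small a change could be called. The median 95% interval reached 0.199 to either side of a change. The highest upper bound was 0.559 in Leca4 and 0.601 in Leca2, and 44 and 42 of the 45 upper bounds lay below 0.5. The upper bound lay below that gene's Sey change in 43 genes in each Leca line. Missing the threshold does not show that a gene was unchanged in these lines.

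**Figure D4:**
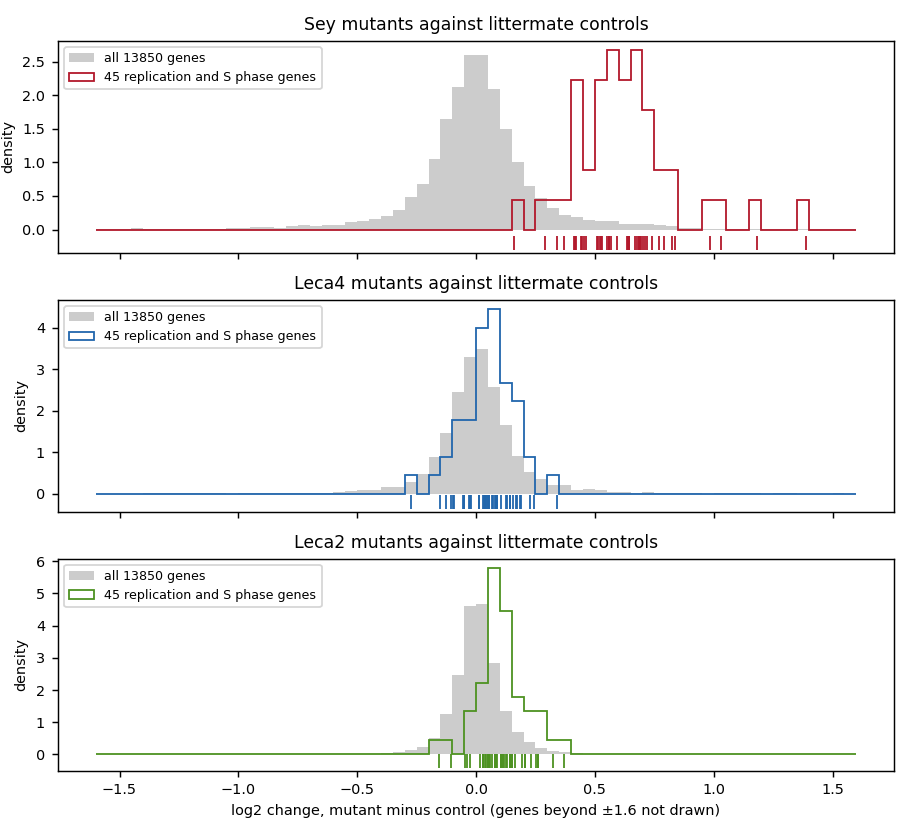
Distribution of log2 changes (horizontal axis) in each line, as densities: the grey histogram holds all 13850 genes, the coloured outline the 45 replication and S phase genes, and ticks below mark each of the 45. The 45 genes have a median of 0.635 in Sey, to the right of the grey peak, and of 0.0544 in Leca4 and 0.0866 in Leca2, close to it.

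The differences between lines were tested directly, each line against its own controls. The Sey change exceeded the Leca4 change in 34 of 45 genes at an adjusted p under 0.05, with 6.76% of all genes called in that direction, and the median difference was 0.584. It exceeded the Leca2 change in 30 genes, with 3.43% of all genes called in that direction, and the median difference was 0.521. Both differences use the same Sey arrays. The Sey line is on another strain than both Leca lines, so allele and strain cannot be told apart in either difference. No gene of the set was called between Leca4 and Leca2, where 1.42% of all genes were called higher and 0.96% lower by limma. An unadjusted p under 0.05 was reached there by 2 genes of the set and by 14.7% of all genes. The count against Leca2 was the least stable. It was 5 with a term for sex, 18 without Leca2 control replicate 1 and 3 for a change beyond 1.2-fold. The count against Leca4 was 10 for a change beyond 1.2-fold.

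Both differences were called in 26 genes. The largest were those of E2f2 (1.25 ± 0.18 against Leca4 and 1.18 ± 0.18 against Leca2, adjusted p = 0.000104 and 0.000327), Cdc6 (1.04 ± 0.17 and 0.86 ± 0.17, adjusted p = 0.00037 and 0.00347) and Cdc45 (1.03 ± 0.15 and 0.83 ± 0.15, adjusted p = 9.19e-05 and 0.00138). Cdt1 followed at 0.94 and 0.80. Of the ring, Mcm6 differed by 0.66 and 0.74, Mcm5 by 0.64 and 0.59, Mcm7 by 0.59 and 0.34, Mcm4 by 0.46 and 0.42 and Mcm2 by 0.40 and 0.41. At the fork, Pola1 differed by 0.80 and 0.65, Prim1 by 0.78 and 0.53, Lig1 by 0.63 and 0.52 and Pcna by 0.57 and 0.54. The others were Mcm10, Gins1, Dbf4, Rfc3, Rfc5, Pola2, Pole2, Pold1, Fen1, Rpa2, Rrm1, Chaf1b and Slbp. Chaf1b differed by 0.79 and 0.56, and its second call was lost with the mean of its probe sets (0.23, adjusted p = 0.129). That call and the Mcm2 call against Leca2 were also lost without Sey control replicate 1 (adjusted p = 0.0611 and 0.0523) and without Leca2 control replicate 1 (adjusted p = 0.0671 and 0.058). A term for sex removed the calls of Cdc6, Mcm2 and Chaf1b against Leca2 (0.66, 0.34 and 0.57, adjusted p = 0.0793, 0.167 and 0.0948).

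In 8 genes the difference was called against Leca4 alone: Orc6 (0.38), Gmnn (0.61), Cdc7 (0.78), Pole (0.73), Rrm2 (0.65), Tyms (0.69), Tk1 (0.69) and E2f8 (0.71). In 4 it was called against Leca2 alone: Mcm3 (0.58), Prim2 (0.42), Dut (0.56) and Tipin (0.55). Tk1 was at the edge, with an adjusted p of 0.0481 against Leca4. That call was lost without Sey mutant replicate 1, 3 or 4, any of the Sey controls, Leca4 mutant replicate 2, or Leca4 control replicate 2 or 4, with adjusted p of 0.061 to 0.152. With all arrays kept, the Tk1 call was also lost with the replicate number as a block (adjusted p = 0.182) and a term for sex (adjusted p = 0.112). The same held for no filter on low values (adjusted p = 0.0594), median centring (adjusted p = 0.0575) and a change beyond 1.2-fold (adjusted p = 0.502). Pole, at 0.47 ± 0.16 against Leca2 (adjusted p = 0.0859), passed without Leca2 mutant replicate 4 (0.59, adjusted p = 0.00709) or Leca2 control replicate 2 (0.56, adjusted p = 0.044). For 7 genes neither difference was called: Orc1, Gins2, Rfc4, Rpa1, Ccne1, Ccne2 and E2f1. The intervals for E2f1 ran from -0.24 to 0.38 against Leca4 and from -0.16 to 0.46 against Leca2.

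Genes of the same pathway outside the set showed a division of their own. Of 46 other replication genes 45 were measured, and in Sey 31 rose and 1 fell, with a median of 0.42. The most certain were partners at the fork: Timeless, the partner of Tipin, rose by 0.87 ± 0.07 (adjusted p = 1.95e-08), and Clspn, which encodes the checkpoint mediator claspin, by 0.94 ± 0.10 (adjusted p = 1.87e-06). Wdhd1, a link between helicase and polymerase alpha, rose by 0.83, Ticrr, which helps to fire origins, by 0.79, and Chtf18, of an alternative clamp loader, by 0.77. The gene that fell was Rrm2b, the reductase subunit used outside S phase, at -0.24 (adjusted p = 0.00652). The 13 genes not called, listed after their values were seen, were Orc2, Orc3, Orc4, Orc5, Pole4, Rpa3, E2f4, E2f5, E2f6, Tfdp2, Rb1, Rbl2 and Top1. Among them are 4 subunits of the origin recognition complex.

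In Leca4 only Tfdp2, a dimer partner of E2F proteins, was called among these genes, at 0.31 (adjusted p = 0.0198). In Leca2 none was called by limma and 9 had an unadjusted p under 0.05. The smallest adjusted p there was that of Timeless, at 0.28 ± 0.07 (adjusted p = 0.0845).

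Mitotic genes rose in Sey as well, in 19 of 19 measured, with a median of 0.675. Top2a, the topoisomerase of dividing cells, rose by 0.91 ± 0.08 (adjusted p = 2.53e-07), and Cenpe, a kinetochore motor, by 0.83 ± 0.10 (adjusted p = 6.74e-06). None was called in Leca4 or Leca2 by limma. All 19 were positive in Leca2, with a median of 0.107 and Cenpe at 0.22 (adjusted p = 0.678). In Leca4 13 were positive, with a median of 0.0665. Their mean level was 10.77 to 10.86 in the Sey mutants and 10.07 to 10.15 in the Sey controls. The array lowest in replication genes within the Leca2 mutants, replicate 3 at 10.001, was also the lowest in mitotic genes, at 10.66. The same held for replicate 2 of the Leca4 mutants, at 9.999 and 10.556. In the Sey mutants the lowest arrays differed, replicate 2 in replication genes (10.151) and replicate 4 in mitotic genes (10.768).

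Markers of cell types in the dissected cortex moved beside these genes in Sey. Of 9 markers of intermediate progenitors, a dividing population, 5 fell and 2 rose. Neurod4 stood at -2.62 and Neurog1 at -2.67, and the 2 that rose were Gadd45g at 0.90 and Insm1 at 0.44. The mean of the 9 markers was 9.23 to 9.43 in mutants and 10.22 to 10.28 in controls. Of 12 markers of radial glia 4 rose and 2 fell, with a median of 0.0934, and the most certain were the glutamate transporter gene Slc1a3 at -1.44 and the Notch receptor gene Notch1 at 0.54. Of 9 projection neuron markers 8 fell, with Slc17a6 at -1.18 and Nrp1 at -1.47. Their mean was 10.25 to 10.51 in mutants and 11.03 to 11.11 in controls. Of 13 pan-neuronal markers 6 fell, with Rbfox3 at -0.62 and Snap25 at -0.61, and 1 rose. Their mean was 11.01 to 11.12 in mutants and 11.14 to 11.28 in controls.

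Genes of the ventral telencephalon and of GABAergic cells had the largest changes of these lists. In Sey 9 of 12 rose, with a median of 2.38, Dlx6 by 2.96 and Dlx5 by 3.76. The other 3 were negative and not called: Lhx6 at -0.56 (limma adjusted p = 0.0595), Nkx2-1 at -0.09 and Gsx1 at -0.03. The mean of the 12 genes was 8.67 to 9.24 in mutants and 6.69 to 6.96 in controls. No endothelial (8), microglial (7), erythroid (6) or meningeal (4) marker was called in Sey by limma. These marker lists had means of 7.06 to 7.25, 7.25 to 7.35, 7.20 to 8.13 and 6.13 to 6.58 in mutants, and of 7.06 to 7.16, 7.28 to 7.42, 7.53 to 8.04 and 6.22 to 6.39 in controls. The part of any of these lists in the Sey change of the replication genes was not tested.

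In the Leca lines other markers moved. The intermediate progenitor genes Neurod4 and Neurog1 fell in Leca2, to changes of -1.49 and -1.43, and in Leca4 Neurog1 rose by 1.34 and Neurod4 stood at -0.43 (adjusted p = 0.0552). No ventral marker was called in either line by limma. Microglial markers rose in Leca4 in 3 of 7 cases, among them C1qa by 0.52 and Csf1r by 0.42. Nrp1 fell in Leca4 (-0.57), where the radial glia gene Hopx rose by 1.66 and Slc1a3 fell (-0.37). No replication or S phase gene of the set was called in Leca4 or Leca2, and the part of these marker shifts in the values was not tested.

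**Figure D5:**
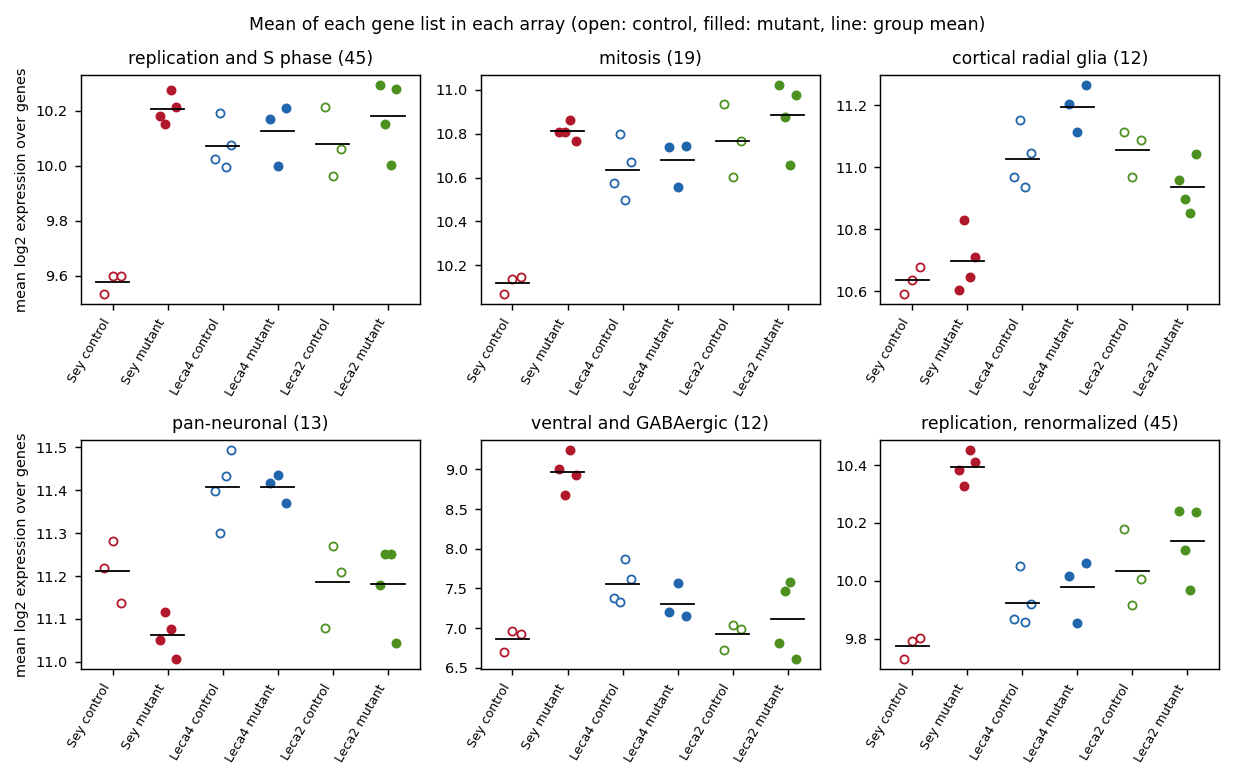
Mean log2 level of the replication and S phase genes, of mitotic genes and of 3 cell type marker lists on each array, by line and genotype; points are arrays and lines group means. In Sey the replication genes (mutants 10.15 to 10.28, controls 9.54 to 9.60), mitotic genes and ventral genes are higher in mutants with no overlap and the pan-neuronal list is lower; the last panel shows the replication genes after quantile normalization over all arrays, where the Sey controls remain lowest as a group, at 9.78.

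Sex and RNA quality were set beside these results. The male Sey mutant, replicate 2, compared with the 3 male controls alone, had a median difference of 0.559 over the 45 genes. This rests on 1 mutant array and was not tested. The median for the 3 females was 0.618. With a term for sex in the fit the median Sey change was 0.584, and the Sey calls of Cdc7, Rfc4, Ccne1, Ccne2 and E2f1 were lost. The 3′ minus 5′ signal of Gapdh, a sign of RNA integrity, averaged -0.151 in the Sey mutants and -0.149 in the controls. It was -0.052 to 0.001 in the Leca2 mutants and -0.088 to -0.057 in their controls, with no overlap, and averaged -0.03 in the Leca4 mutants and -0.097 in theirs. The part of this signal in the values of the Leca lines was not tested. For a change beyond 1.2-fold, 28 of the 45 genes passed in Sey.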

How the data were processed

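Total RNA was measured on 21 Affymetrix arrays. The deposited values are log2 expression values made by the authors with RMA, per the submitters' processing notes; for its version and settings, nothing is given in the sources used here. Each line's columns share nearly 1 distribution, so normalization seems to have been run separately for each line.

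GEO's platform annotation gave 34945 of 45101 probe sets a gene alone, 932 several genes and 9160 none, beside 64 controls. Probe sets above the array's 40th percentile of non-control probe sets on at least 3 arrays were kept (29474), and the brightest kept probe set on average stood for its gene (13850 genes). Differences were tested with limma 3.58.1 in R 4.3.3 (lmFit and eBayes over 6 groups, 15 residual and 3.54 prior degrees of freedom), two-sided, with Benjamini-Hochberg adjustment over all genes of a comparison and a call at 0.05. The number of arrays limits the precision. The fit was tested on simulated data. P-values measure the spread between the labelled biological replicates.

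The genes described, the lists and the tests were chosen with earlier results of these data known. Values by array are given for the gene with the largest Sey change in each role and for Mcm2, Pcna, Ccne1 and E2f1. Changes are given for these, for 2 further genes per role, for genes not called in Sey, for genes called in another comparison, and for genes whose probe sets disagree in sign. Of other replication genes up to 5 per direction and line with the smallest p are named, and of mitosis and marker lists up to 2. Intermediate progenitor markers that rose in Sey, and ventral markers not called there, are named as well. Alternatives covered the fit, filter, probe set, normalization, array weights, sex, a minimum fold and each array left out. Names without a matched probe set were not analysed here.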

Additional observations from a re-analysis of the deposited data

Results flagged for a closer look

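The Sey change differed from the change of another line by a direct test of the difference, in 34 genes against Leca4 and 30 against Leca2 (limma, adjusted p under 0.05). Among the genes given by array, the difference from Leca4 was 1.04 for Cdc6, 1.03 for Cdc45, 0.73 for Pole, 0.69 for Tk1, 1.25 for E2f2, 0.79 for Chaf1b, 0.40 for Mcm2 and 0.57 for Pcna. The difference from Leca2 was 0.86 for Cdc6, 0.83 for Cdc45, 1.18 for E2f2, 0.56 for Chaf1b, 0.41 for Mcm2 and 0.54 for Pcna. All of these are upward in Sey relative to the other line, and allele and strain cannot be told apart in them. The Tk1 call was at the edge and was lost under several settings, as given above.

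Pcna had an array far from the others of its group. Leca2 mutant replicate 3 read 13.31, against 13.56 to 13.59 in the other 3, a gap of 0.888 of the group's whole range, above Dixon's 95% critical value for 4 arrays. Of the 30 groups of 4 among the genes given by array this was the only one above that value, and of all 135 groups of 4 over the 45 genes 5 were, where chance gives about 1 in 20.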

How the results depend on the processing

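No called value changed its direction under any alternative run. The Sey count of 44 was 28 for a change beyond 1.2-fold, where 702 of all genes were called against 2791, and 39 to 44 under the other 10 settings that kept all arrays. Leaving out each array in turn gave 42 to 44 in Sey, 0 to 1 in Leca4 (E2f1, without Leca4 mutant replicate 2), 0 in Leca2, 28 to 36 for Sey against Leca4, 18 to 33 for Sey against Leca2 (lowest without Leca2 control replicate 1) and 0 to 1 for Leca4 against Leca2 (without Leca4 mutant replicate 3). The Leca4 count was 1 with the mean of the kept probe sets. The count of Sey against Leca4 was 10 for a change beyond 1.2-fold, and of Sey against Leca2 3 for that setting and 5 with a term for sex, where 293 of all genes were called against 927. The cause was not tested. The median change was 0.57 to 0.64 in Sey, 0.0237 to 0.1235 in Leca4 and 0.038 to 0.1543 in Leca2 over all settings run for it, the Leca extremes each with an array left out. With array weights it was 0.0981 in Leca4 and 0.138 in Leca2.

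Replicate numbers are shared between mutants and controls. Same-numbered arrays correlated from -0.44 to 0.338 in their deviations, and 4 of 9 mutants correlated best with their own number. So few pairs cannot tell whether such arrays share more than a number, and the main fit treats them as unpaired. With the replicate number as a block 41 genes were called in Sey, 0 in Leca4, 0 in Leca2, 27 for Sey against Leca4 and 28 for Sey against Leca2, with 2027 of all genes called in Sey.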
